A study of Rattus norvegicus with 16 samples.

Results

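The nuclear genes for the subunits of respiratory complexes II, III, IV and V were followed in the left ventricle of rats fed phenformin, a biguanide drug. The list held 42 genes: the Sdh genes of complex II, the Uqcr genes and Cyc1 of complex III, the Cox genes of complex IV and the Atp5 genes of complex V. Each gene was represented by the probe set annotated with that symbol alone that had the highest mean over the 16 arrays. This gave values for 36 of the 42 genes: 4 of 4 for complex II, 9 of 9 for complex III, 11 of 14 for complex IV and 12 of 15 for complex V. They are a small part of the 22093 genes measured in the same way. Cox6b1, Cox7a1, Cox7c, Atp5f1c, Atp5f1d and Atp5me were not among these 36 genes. Of these, Cox7c, Atp5f1c and Atp5me each have 1 probe set whose annotation names several genes. A probe set under Atp5d, an older symbol of Atp5f1d, was not counted in the list and is given at the end.

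The arrays measured RNA from the apex of the left ventricle of male RccHan Wistar rats that were 7 to 8 weeks old when the study began. Treated rats ate 3000 ppm phenformin in the diet for 3 or 14 days, and controls ate the same chow without the drug for the same time. The 4 groups are therefore phenformin at day 3, control at day 3, phenformin at day 14 and control at day 14, with 4 arrays in each, labelled as biological replicates. The study's protocol gives 5 animals per group. No genetic change is named for any group, the drug was given at a single dose, and the apex was taken whole, with all of its cell types.

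The respiratory chain passes electrons from fuels to oxygen and stores the energy as a proton gradient across the inner mitochondrial membrane, which ATP synthase, complex V, uses to make ATP. Complex II feeds electrons from succinate into coenzyme Q, complex III passes them on to cytochrome c, and complex IV, cytochrome c oxidase, hands them to oxygen. The heart depends on this route for nearly all of its ATP, and heart muscle uses its own isoforms of several complex IV subunits. Biguanides are known to inhibit complex I, whose subunits are not among these genes. Every subunit of complex II is encoded in the nucleus, whereas complexes III, IV and V also contain subunits encoded in mitochondrial DNA, which were not analysed here.

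The stretches of DNA just before the start of these genes are shown because factors known to switch on respiratory genes bind short motifs there. RefSeq held the 250 bases before the start of 29 of the 36 genes, in the GRCr8 rat assembly. The letters searched on both strands were GCGC and GCGC set 2 free bases apart for nuclear respiratory factor 1 (NRF1), CCGGAAG for the core of ETS factors such as GABP, AAGGTCA for the half-site of oestrogen-related receptors (ERR) and CTA and TAG set 4 free bases apart for the muscle factor MEF2. In the 5 sequences printed here the matches are in capitals, and none of the printed matches overlaps another. The pair of Cox8 isoform genes, the heart isoform Cox6a2, Uqcrq of complex III and Sdha of complex II are given 5′ to 3′ on the strand of the gene, and each ends at the base before the annotated start.
Cox8a, chr1:213833624-213833873, minus strand: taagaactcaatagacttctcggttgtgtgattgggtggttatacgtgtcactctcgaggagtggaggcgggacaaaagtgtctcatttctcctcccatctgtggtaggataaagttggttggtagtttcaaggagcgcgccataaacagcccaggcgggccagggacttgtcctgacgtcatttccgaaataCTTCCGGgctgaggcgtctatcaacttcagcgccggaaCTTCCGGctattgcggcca
Cox8b, chr1:205408274-205408523, minus strand: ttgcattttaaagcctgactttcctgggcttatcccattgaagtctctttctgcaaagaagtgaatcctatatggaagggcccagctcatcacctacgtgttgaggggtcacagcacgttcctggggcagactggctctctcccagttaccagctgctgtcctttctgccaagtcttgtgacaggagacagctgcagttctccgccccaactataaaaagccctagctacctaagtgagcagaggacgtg
Cox6a2, chr1:192219717-192219966, minus strand: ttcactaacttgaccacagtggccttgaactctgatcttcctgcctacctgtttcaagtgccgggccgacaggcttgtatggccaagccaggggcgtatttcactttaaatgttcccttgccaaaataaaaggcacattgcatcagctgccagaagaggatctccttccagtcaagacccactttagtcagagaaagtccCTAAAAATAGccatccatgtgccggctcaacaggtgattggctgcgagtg
Uqcrq, chr10:38089979-38090228, minus strand: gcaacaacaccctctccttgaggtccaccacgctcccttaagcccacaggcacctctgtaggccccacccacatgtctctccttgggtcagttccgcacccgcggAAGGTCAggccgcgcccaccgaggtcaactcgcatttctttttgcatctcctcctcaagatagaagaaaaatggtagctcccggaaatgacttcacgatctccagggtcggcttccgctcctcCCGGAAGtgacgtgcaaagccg
Sdha, chr1:30764303-30764552, plus strand: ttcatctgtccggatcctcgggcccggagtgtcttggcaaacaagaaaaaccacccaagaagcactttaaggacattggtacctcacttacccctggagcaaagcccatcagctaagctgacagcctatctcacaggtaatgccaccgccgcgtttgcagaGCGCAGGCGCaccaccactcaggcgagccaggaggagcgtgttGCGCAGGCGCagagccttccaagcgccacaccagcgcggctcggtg
For Cox6a2 and Uqcrq this start lies 1472 and 3893 bases inside the outermost end of the annotated gene.

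The window of Cox8a, which encodes the widely expressed isoform of subunit VIII, held the ETS core at -57 and at -19 from the start. None of the searched letters occurred in the window of Cox8b, the isoform of heart and skeletal muscle. The window of Cox6a2, the heart and muscle isoform of subunit VIa, held the MEF2 letters at -50. The ETS core stood at -22 and the ERR half-site at -145 before Uqcrq, and the NRF1 letters at -89 and -46 before Sdha.

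Across the 29 windows, 11 held the ETS core (37.9%), against 9.01% of 21851 windows of the same length before protein-coding genes. The ERR half-site was in 5 windows (17.2%, against 3.3%), the NRF1 letters in 4 (13.8%, against 6.47%) and the MEF2 letters in 2 (6.9%, against 3.12%). In all, 18 windows held at least 1 of these motifs and 11 held none, and this share was not computed over the 21851 windows. A match describes letters in a window and is not evidence of binding. At day 3 the median log2 change with phenformin was -0.0172 for genes with the ETS core and 0.0246 for those without. It was 0.0638 with and 0.00597 without the ERR half-site, 0.0435 with and -0.00306 without the NRF1 letters, and 0.028 with and 0.0168 without the MEF2 letters. At day 14 all of these medians lay between -0.0365 and -0.0156.

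All values below are the log2 of the deposited intensity, and a change is the log2 mean with phenformin less that of controls, given with its standard error (SE) from a limma fit over all genes. Levels of different probe sets are not comparable, so genes are compared only by their changes. The 10 genes with a mean above 16 stand near the top of the scale, where the highest intensity on any array was 19.93 on the log2 scale. The median residual SD, as moderated by limma, was 0.0896 for these 10 and 0.104 for all 36, against 0.166 for all genes. It was 0.109 for the 160 genes of the series with a mean above 16. Moderation draws the SD of each gene towards a trend with mean level, so these values partly reflect that trend.

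The log2 median of an array was 4.935 to 5.13, and its 99th percentile was 16.93 to 17.79. Any pair of arrays correlated at 0.984 to 0.991. As a check of the labelled tissue, each marker's own mean log2 value is given without ranking. The 9 measured cardiomyocyte markers had 13.52 to 19.85. The atrial markers Myl7, Sln and Nppa had 5.64, 7.93 and 15.67, the brown fat markers Ucp1 and Cidea 3.90 and 10.35, and the 4 fat cell markers 3.70 to 5.01. With phenformin the 3 atrial markers changed by -0.958 to 1.94 at day 14. Over both days 1 of the 3 was called, higher (limma adjusted p = 0.0162), against 1.21% of all genes. Their mean relative to the 16 arrays was highest, at 1.34, in day 14 phenformin replicate 1, and its part in the values below was not tested. Day 3 arrays differed in fibroblast markers: all 8 were lower with phenformin, against 49.9% of all genes. Their median log2 change was -0.74. In limma 0 of the 8 were called, against 0.566% of all genes. At an unadjusted limma p under 0.05 there were 5, against 9.38% of all genes. The mean of these 8 markers, relative to the 16 arrays, was -0.174 ± 0.278 with phenformin at day 3, against 0.452 ± 0.132 in day 3 controls, and its part in the values below was not tested. At day 3 all 7 macrophage markers (median change -0.364) and all 6 red blood cell markers measured (median -0.467) were also lower with phenformin. In limma 0 of either list were called, against 0.566% of all genes, and their part was not tested. The cardiomyocyte list had a median change of 0.011 at day 3 and 0.0123 at day 14. In tissue made of several cell types, fewer cells of a type and less RNA per cell cannot be told apart.

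The first comparison asked what 3 days of phenformin did to these transcripts. Of the 36 genes, 0 passed the Benjamini-Hochberg adjusted threshold of 0.05 in limma, where 0.566% of all genes did, and the smallest adjusted p among the 36 was 0.318. At an unadjusted p under 0.05 there were 3 genes (8.33%), all higher with phenformin, against 9.38% of all genes in either direction and 3.59% higher. These were the complex IV genes Cox4i1 and Cox7a2 and the ATP synthase gene Atp5pb. The median log2 change was -0.00257, with 17 genes above 0 and 19 below. Over all genes the median was 0.000136, with 50.1% above 0. The changes ranged from -0.261 to 0.258.

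At day 14 again 0 of the 36 genes passed, where 0.0724% of all genes did, and the smallest adjusted p was 0.202. The 4 genes at an unadjusted p under 0.05 (11.1%, against 10.8% of all genes in either direction and 6.96% lower) were all lower with phenformin. They were Uqcrq and Uqcr11 of complex III, Cox8a of complex IV and Atp5pb of complex V. The median log2 change was -0.0365, with 8 genes above 0 and 28 below (77.8%), while all genes had a median of -0.0298 and 57.8% below 0. With the arrays quantile normalised again the median of the 36 was -0.128 (2 above 0 and 34 below), and that of the 160 genes with a mean above 16 was -0.169. With array medians aligned instead, the median of the 36 was -0.00781 (15 above 0 and 21 below), and that of the 160 was 0.00414. The lean to lower values at day 14 therefore depended on the scaling. Leaving out day 14 control replicate 4 gave a median of -0.0178, while leaving out replicate 2 gave -0.0721 and replicate 3 gave -0.0562. At day 14 the 6 red blood cell markers measured had a median change of -0.699 and the 5 platelet markers one of -1.04, and their part in these values was not tested.

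The intervals of change were narrow in the fit of the deposited values. The 95% interval of the change lay within 1.5-fold either way for 36 of 36 genes at both days, against 82.5% of all genes at day 3 and 81.1% at day 14. For the 160 genes with a mean above 16 the shares were 90.6% and 91.9%. The widest bounds of any of the 36 genes were -0.528 and 0.515 at day 3 and -0.524 and 0.378 at day 14. These intervals hold for that scaling alone and do not cover differences between scalings. With the arrays quantile normalised again, Sdha had -0.188 at day 14, outside its interval of -0.0814 to 0.138. Whether probe sets near the top of the scale had their changes compressed was not tested. With both days averaged, 0 genes passed (1.21% of all genes did; smallest adjusted p = 0.286), and 4 had an unadjusted p under 0.05 (11.1%, against 13% of all genes). Of these, Cox4i1 and Atp5mg were higher and Cox6a1 and Cox8a lower with phenformin, where 4.74% of all genes were higher and 8.28% lower at that p. The median over both days was -0.0186. The intervals of all 36 lay between -0.395 and 0.329, within 1.5-fold, as did those of 93.1% of all genes.

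**Figure D1:**
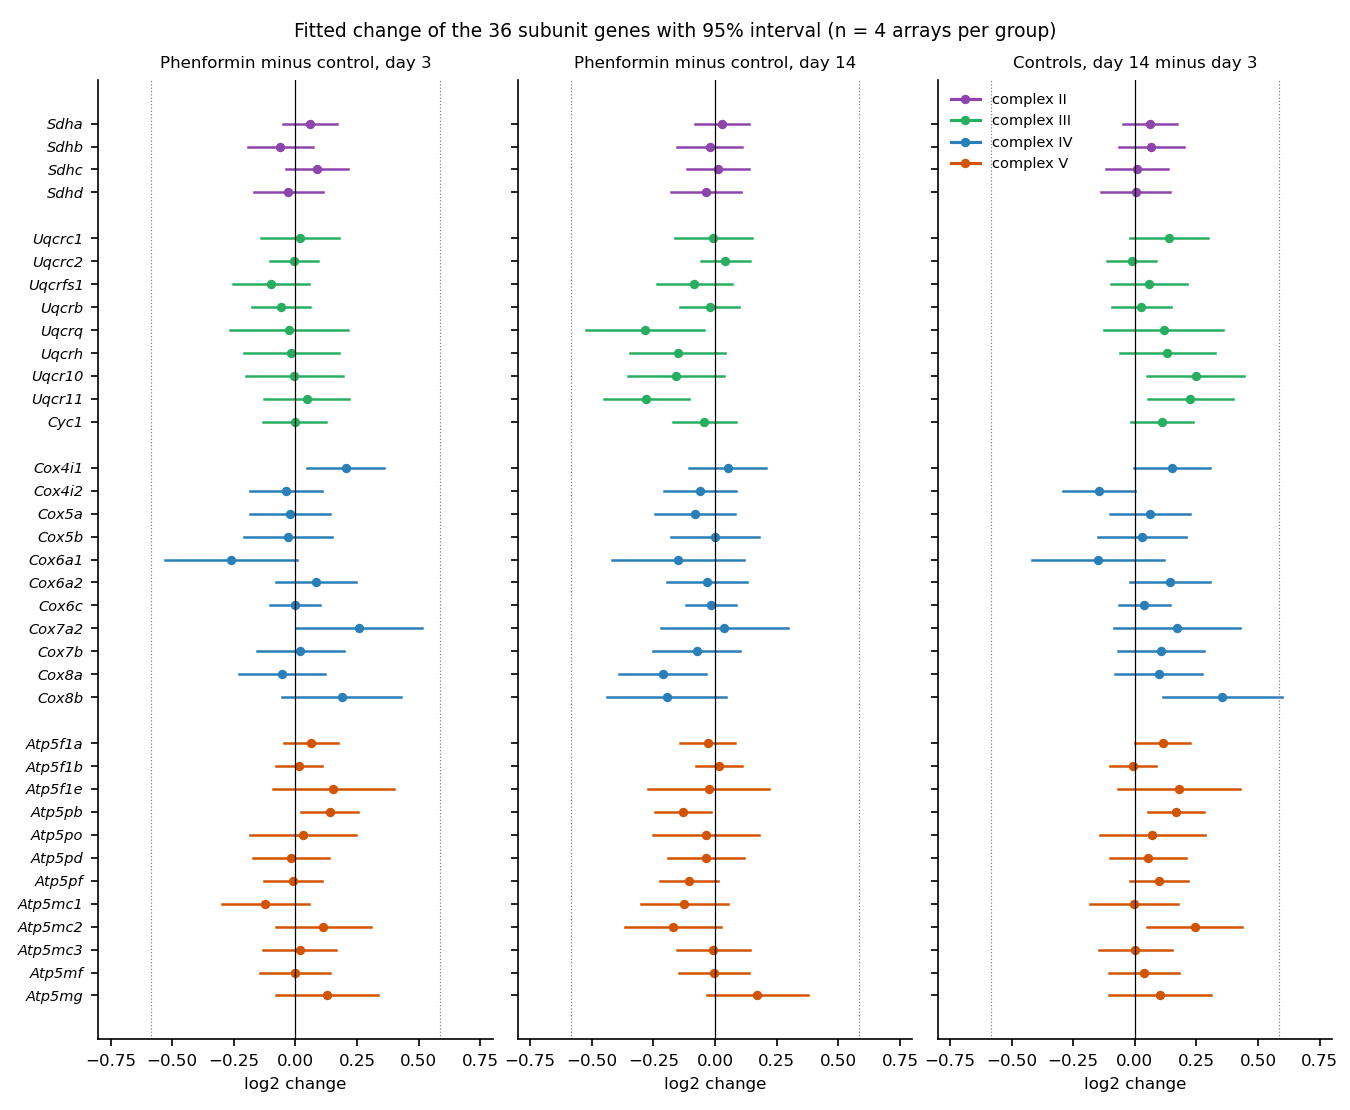
Log2 change of the 36 genes, grouped by complex, in 3 panels: phenformin minus control at day 3, the same at day 14, and day 14 minus day 3 in controls. Points are changes and bars the 95% intervals of the limma fit; dotted lines mark 1.5-fold, which 0 intervals crossed in the phenformin panels and 1 crossed in the control panel.

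The 4 genes of complex II had changes of -0.0617 to 0.0889 at day 3 and -0.0373 to 0.0285 at day 14, with medians of 0.0144 and -0.00486. None of the 4 had an unadjusted limma p under 0.05 at either day. Over all genes 9.38% did at day 3 and 10.8% at day 14, so 0 of 4 is near the background. Sdha encodes the flavoprotein that oxidises succinate. It stood at 15.98, 16.03, 15.99 and 15.96 with phenformin at day 3, against 15.99, 16, 15.85 and 15.89 in day 3 controls. On day 14 the values were 16.02, 16.01, 15.99 and 16.08 with phenformin, against 16.03, 15.95, 15.99 and 16.02 in controls. The groups overlapped at both days, with log2 changes of 0.0576 (SE 0.0519, 95% interval -0.0523 to 0.167) and 0.0285 (interval -0.0814 to 0.138).

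Sdhb, the iron-sulphur subunit, had a log2 change of -0.0617 at day 3 (95% interval -0.194 to 0.0702) and -0.0211 at day 14 (interval -0.153 to 0.111). The membrane anchor gene Sdhc had 0.0889 at day 3 (SE 0.0597, interval -0.0375 to 0.215, adjusted p = 0.727) and 0.0114 at day 14. Its day 3 controls were 14.05, 14.04, 13.85 and 14.06, so replicate 3 stood apart from the other 3, and without it the day 3 change was 0.0394 (and that of Sdha 0.0312). Sdhd, the second membrane anchor, had -0.0288 at day 3 and -0.0373 at day 14 (interval -0.178 to 0.104).

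Among the 9 genes of complex III the median change was -0.00577 at day 3 and -0.0836 at day 14, when 1 was above 0 and 8 below. The core protein gene Uqcrc2 had changes of -0.00577 at day 3 (95% interval -0.105 to 0.0932) and 0.0414 at day 14 (interval -0.0575 to 0.14). Uqcrfs1 encodes the Rieske iron-sulphur protein, which takes electrons from coenzyme Q. It had -0.0995 at day 3 (interval -0.253 to 0.0539, adjusted p = 0.764) and -0.0836 at day 14 (interval -0.237 to 0.0698). Uqcrb, a small subunit next to the quinone site, had -0.0586 at day 3 (interval -0.177 to 0.0602) and -0.0226 at day 14.

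The lowest changes of complex III at day 14 belonged to genes of small subunits. Uqcr11 stood at 9.65, 9.65, 9.66 and 9.68 with phenformin at day 14, against 9.95, 9.99, 9.72 and 10.08 in day 14 controls. All 4 treated arrays were below all 4 controls, by a gap of 0.0367 at the nearest pair. At day 3 the values were 9.69, 9.71, 9.75 and 9.89 with phenformin, against 9.63, 9.73, 9.61 and 9.88 in controls, which overlapped. Its log2 change was -0.279 at day 14 (0.824-fold, SE 0.0816, 95% interval -0.452 to -0.107, unadjusted p = 0.00341, adjusted p = 0.202) and 0.0455 at day 3.

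Uqcrq encodes a ubiquinone-binding subunit, and its promoter window is the one printed with the ETS and ERR letters. It stood at 10.57, 10.85, 10.84 and 10.8 with phenformin at day 14, against 11.11, 10.83, 11.04 and 11.22 in day 14 controls. Replicate 2 of the controls lay among the treated arrays, so the groups overlapped. At day 3 it was 10.72, 11.08, 11.11 and 10.73 with phenformin, against 11.06, 10.81, 10.77 and 11.08 in controls. The log2 change was -0.284 at day 14 (0.821-fold, SE 0.114, 95% interval -0.524 to -0.0435, adjusted p = 0.374) and -0.0263 at day 3. The other members of complex III, Uqcrc1, Uqcrh, Uqcr10 and Cyc1, had changes of -0.0172 to 0.0188 at day 3 and -0.16 to -0.00661 at day 14.

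Complex IV had a median change of -0.00208 over its 11 measured genes at day 3 and -0.0604 at day 14. Cox4i1 encodes the widely expressed isoform of subunit IV, which takes part in regulation of the enzyme by ATP. It stood at 13.94, 14.04, 14.04 and 14.03 with phenformin at day 3, against 13.96, 13.8, 13.6 and 13.89 in day 3 controls. Treated replicate 1 lay just below the highest control and the other 3 above all controls. By day 14 it stood at 13.95, 14.06, 14.04 and 14.01 with phenformin, against 14.02, 13.86, 13.94 and 14.04 in controls. Its change was 0.203 at day 3 (1.151-fold, SE 0.0731, 95% interval 0.0486 to 0.358, adjusted p = 0.318) and 0.0505 at day 14 (adjusted p = 0.849). Over both days it was 0.127, with the smallest adjusted p of the list in that comparison (0.286).

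Cox4i2, the isoform known from lung and from low oxygen, had log2 changes of -0.0391 at day 3 and -0.0604 at day 14. Cox7a2 encodes the widely expressed isoform of subunit VIIa. It stood at 16.92, 16.99, 17.11 and 17.14 with phenformin at day 3, against 16.89, 16.79, 16.47 and 16.98 in day 3 controls. The day 14 values were 16.93, 16.99, 16.97 and 17.08 with phenformin, against 17.18, 16.61, 16.87 and 17.16 in controls, which lay on both sides of the treated arrays. The log2 change was 0.258 at day 3 (1.196-fold, SE 0.121, interval 0.00156 to 0.515, adjusted p = 0.528) and 0.0379 at day 14. Without day 3 control replicate 3, the lowest of its group for both genes, the day 3 change was 0.153 for Cox7a2 and 0.132 for Cox4i1.

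Subunit VIa has a widely expressed gene, Cox6a1, and a heart and muscle gene, Cox6a2. Cox6a1 stood at 12.54, 12.73, 12.71 and 12.38 with phenformin at day 3, against 12.96, 13.02, 12.67 and 12.75 in day 3 controls. The day 14 arrays gave 12.29, 12.87, 12.39 and 12.64 with phenformin, against 12.85, 12.47, 12.73 and 12.75 in controls. The groups overlapped at both days. Its log2 change was -0.261 at day 3 (0.835-fold, SE 0.126, interval -0.528 to 0.00627, adjusted p = 0.544), -0.15 at day 14 and -0.206 over both days (SE 0.0893, adjusted p = 0.33).

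Cox6a2 stood at 19.03, 19.09, 19.06 and 19.06 with phenformin at day 3, against 19.06, 19.06, 18.83 and 18.95 in day 3 controls. In the day 14 arrays it was 19.06, 19.24, 19.06 and 18.99 with phenformin, against 19.06, 19.11, 18.98 and 19.33 in controls. These groups overlapped, with log2 changes of 0.0848 (interval -0.0779 to 0.248) and -0.0323 (interval -0.195 to 0.13). The probe set is near the top of the scale, and whether this compressed its changes was not tested.

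Subunit VIII likewise has the general gene Cox8a and the heart and muscle gene Cox8b. Cox8a stood at 7.1, 7.25, 7.06 and 7.17 with phenformin at day 14, against 7.29, 7.36, 7.16 and 7.62 in day 14 controls. The groups overlapped, and control replicate 4 was the highest of the 16 arrays. At day 3 it was 7.2, 7.16, 7.25 and 7.22 with phenformin, against 7.27, 7.28, 7.2 and 7.29 in controls. The fitted log2 change was -0.213 at day 14 (0.863-fold, SE 0.0827, 95% interval -0.389 to -0.0382, adjusted p = 0.357) and -0.054 at day 3. Without control replicate 4 the day 14 change was -0.126.

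Cox8b stood at 11.95, 12.11, 11.86 and 11.87 with phenformin at day 3, against 11.84, 11.75, 11.68 and 11.76 in day 3 controls. All 4 treated arrays were above all 4 controls, by a gap of 0.0234. Its day 14 values were 11.65, 12.15, 11.98 and 11.89 with phenformin, against 12.12, 11.91, 11.98 and 12.45 in controls, and the groups overlapped. The log2 change was 0.189 at day 3 (SE 0.114, interval -0.0529 to 0.43, adjusted p = 0.687) and -0.197 at day 14 (interval -0.438 to 0.0447, adjusted p = 0.56). The day 14 change was -0.108 without phenformin replicate 1 and -0.0852 without control replicate 4. The other genes of complex IV, Cox5a, Cox5b, Cox6c and Cox7b, had changes of -0.0289 to 0.0198 at day 3 and -0.0824 to 0.00113 at day 14.

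In complex V, 8 of 12 genes were above 0 at day 3 (median 0.0231) and 10 of 12 below 0 at day 14 (median -0.033). Atp5f1b encodes the beta subunit, which carries the catalytic sites. Its 16 values lay between 19.3 and 19.4, and its changes were 0.015 at day 3 (95% interval -0.0776 to 0.108) and 0.0151 at day 14. Its probe set is also near the top of the scale.

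Atp5pb encodes subunit b of the peripheral stalk, which holds the catalytic head still while the rotor turns. It stood at 18.49, 18.61, 18.53 and 18.51 with phenformin at day 3, against 18.49, 18.32, 18.37 and 18.4 in day 3 controls. After 14 days it stood at 18.35, 18.48, 18.47 and 18.44 with phenformin, against 18.55, 18.51, 18.58 and 18.62 in controls. The treated arrays were all above the controls at day 3, by a gap of 0.00173, and all below them at day 14, by a gap of 0.0322. On the log2 scale the change was 0.139 at day 3 (1.101-fold, SE 0.0541, interval 0.0243 to 0.253, adjusted p = 0.379) and -0.131 at day 14 (0.913-fold, interval -0.246 to -0.0168, adjusted p = 0.387). The dimmer of its probe sets had 0.142 at day 3 and -0.00252 at day 14, and so did not show the day 14 difference.

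Groups that do not overlap were thus found for Cox8b and Atp5pb at day 3, 2 of 36 genes, where 6.21% of all genes had them. At day 14 they were found for Uqcr11 and Atp5pb, again 2 of 36, where 5.13% of all genes had them.

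The c subunit of the ATP synthase rotor is encoded by Atp5mc1, Atp5mc2 and Atp5mc3. Atp5mc1 had log2 changes of -0.122 at day 3 (95% interval -0.3 to 0.0554) and -0.124 at day 14, while Atp5mc3 had 0.0168 and -0.00768. Atp5mc2 had 0.113 at day 3 and -0.17 at day 14. Atp5pf, coupling factor 6 of the peripheral stalk, had -0.011 at day 3 and -0.106 at day 14 (interval -0.223 to 0.0118, adjusted p = 0.519).

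Atp5mg encodes subunit g of the membrane part. It stood at 10.82, 11.1, 11.09 and 11.06 with phenformin at day 14, against 10.99, 10.63, 10.85 and 10.91 in day 14 controls. Treated replicate 1 lay within the controls and the other 3 above them. At day 3 it was 10.87, 10.85, 10.85 and 10.93 with phenformin, against 10.86, 10.92, 10.49 and 10.72 in controls, which overlapped. The log2 change was 0.172 at day 14 (interval -0.0345 to 0.378, adjusted p = 0.553), 0.128 at day 3 and 0.15 over both days (adjusted p = 0.369). RefSeq lists 8 pseudogenes named after Atp5mg, the most of any of these genes, and 21 of the 36 genes have at least 1, so values may include signal from such copies. The remaining genes of complex V, Atp5f1a, Atp5f1e, Atp5po, Atp5pd and Atp5mf, had changes of -0.0196 to 0.153 at day 3 and -0.0384 to -0.00615 at day 14.

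**Figure D2:**
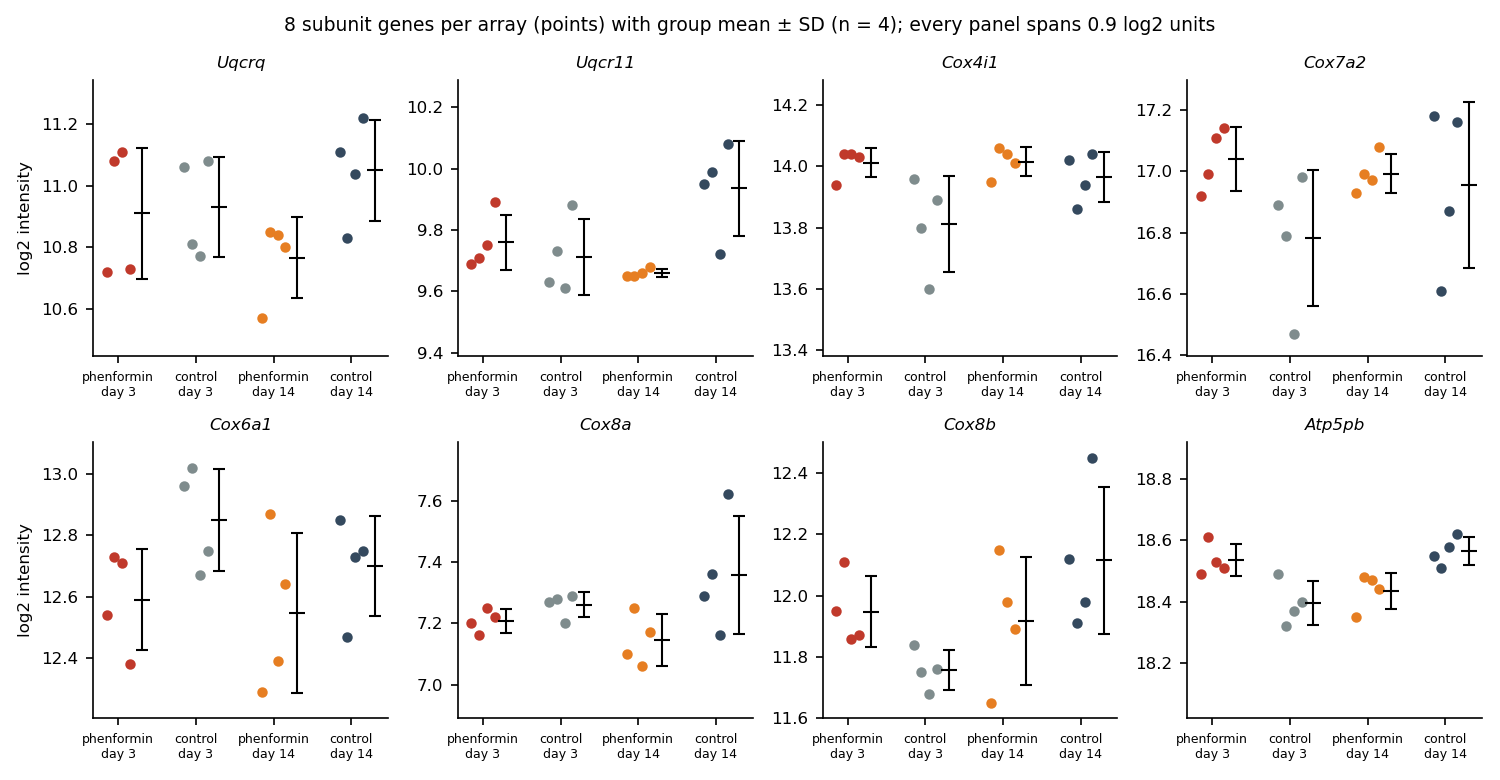
Log2 intensity of 8 genes on each array, with the phenformin group left of its control at day 3 and at day 14; points are arrays and each panel spans 0.9 log2 units. Uqcr11 at day 14 and Cox8b at day 3 are separated, Atp5pb is separated in opposite directions at the 2 days, and the groups overlap in all other cases shown.

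The difference between the effects at the 2 days was tested directly. Of the 36 genes 0 passed, as did 0% of all genes, and the smallest adjusted p was 0.432. At an unadjusted p under 0.05 there were 4 genes (11.1%, against 7% of all genes and 3.88% lower), and in each the effect at day 14 was lower than at day 3. Atp5pb had a difference of -0.27 in the brighter of its probe sets (SE 0.0765, 95% interval -0.432 to -0.108, unadjusted p = 0.00272). The dimmer one had log2 changes of 0.142 at day 3 and -0.00252 at day 14. Uqcr11 had -0.325 (SE 0.115, adjusted p = 0.588), Cox8b -0.385 (SE 0.161, adjusted p = 0.67) and Atp5mc2 -0.284 (adjusted p = 0.706). The median difference over the 36 genes was -0.0501, against -0.0234 over all genes. It was -0.147 with the arrays quantile normalised again and turned sign to 0.00401 with array medians aligned. The intervals of the difference were wider, from -0.727 to 0.489 at their extremes. Of these, 34 of 36 lay within 1.5-fold, against 62.3% of all genes and 88.1% of the 160 genes with a mean above 16.

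Day 14 controls were also set against day 3 controls. These are different rats, older at day 14, and age, time in the study and any difference in the day of dissection cannot be told apart. Here 31 of 36 genes were above 0 (86.1%, against 54.3% of all genes), with a median log2 change of 0.0841 against 0.014 over all genes. Between the same groups, the mean of the 8 fibroblast markers was -0.0402 in day 14 controls (-0.297 to 0.173) and 0.452 in day 3 controls (0.289 to 0.612), which did not overlap. The mean of the 5 platelet markers was 0.432 in day 14 controls (0.008 to 1.052) and 0.0615 in day 3 controls (-0.197 to 0.493). The part of either in the values of the 36 genes was not tested. The 160 genes with a mean above 16 had a median of 0.0517, and the 10 subunit genes among them 0.11. Of the 160 genes, 68.8% were above 0 and 18.1% had an unadjusted limma p under 0.05. None of the 36 genes passed the limma test (0 of 36, against 0% of all genes; smallest adjusted p = 0.3), and 7 had an unadjusted p under 0.05 (19.4%, against 9.46% of all genes). The 6 higher ones were Uqcr10, Uqcr11, Cox8b, Atp5f1a, Atp5pb and Atp5mc2, and the lower one was Cox4i2, where 5.07% of all genes were higher and 4.39% lower at that p. Intervals lay within 1.5-fold for 35 of 36 genes, with Cox8b the exception, against 82.8% of all genes and 93.8% of the 160.

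Cox8b had the largest of these control differences, at 0.355 (1.279-fold, 95% interval 0.113 to 0.596, adjusted p = 0.3). Its day 14 controls of 12.12, 11.91, 11.98 and 12.45 all lay above its day 3 controls of 11.84, 11.75, 11.68 and 11.76. Atp5pb had 0.168 (adjusted p = 0.3), against 0.0723 in the dimmer of its probe sets, and in the brighter its control groups did not overlap either. These were 2 of 36 genes, where 4.65% of all genes had control groups apart. Uqcr10 had 0.246 (1.186-fold, SE 0.0921, adjusted p = 0.384) and Uqcr11 0.226 (adjusted p = 0.368). The day 14 controls thus enter both this comparison and the day 14 effect of phenformin, which share those arrays.

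The size of this difference depended on a few control arrays. The median was 0.0557 without day 14 control replicate 4. Without day 3 control replicates 2 and 3, the pair farthest from the centre on the first 2 principal components of all genes, the median control difference was 0.0376, with 25 genes above 0 and 11 below. That alternative was chosen after seeing the data.

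The 36 genes varied together from array to array. Relative to the mean over 16 arrays, their mean was -0.057, 0.02, 0.018 and -0.029 with phenformin at day 3, against 0.031, -0.018, -0.124 and -0.02 in day 3 controls. At day 14 it was -0.069, 0.041, -0.01 and 0.004 with phenformin, against 0.109, -0.046, 0.008 and 0.143 in controls. The lowest array was day 3 control replicate 3 and the highest day 14 control replicate 4. The group mean was -0.012 ± 0.0376 with phenformin at day 3, against -0.0328 ± 0.0652 in day 3 controls (SD, n = 4 arrays). It was -0.0085 ± 0.0457 with phenformin at day 14, against 0.0535 ± 0.0877 in day 14 controls, and the arrays of the groups overlapped at both days.

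Complex III had the widest gap between group means at day 14. Its mean was -0.097, 0.012, 0.006 and -0.001 with phenformin, against 0.122, -0.014, 0.075 and 0.176 in controls, a group mean of -0.02 ± 0.0516 against 0.0898 ± 0.0805. Control replicate 2 lay within the treated arrays. Complex II stayed within -0.084 and 0.04 on all 16 arrays.

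**Figure D3:**
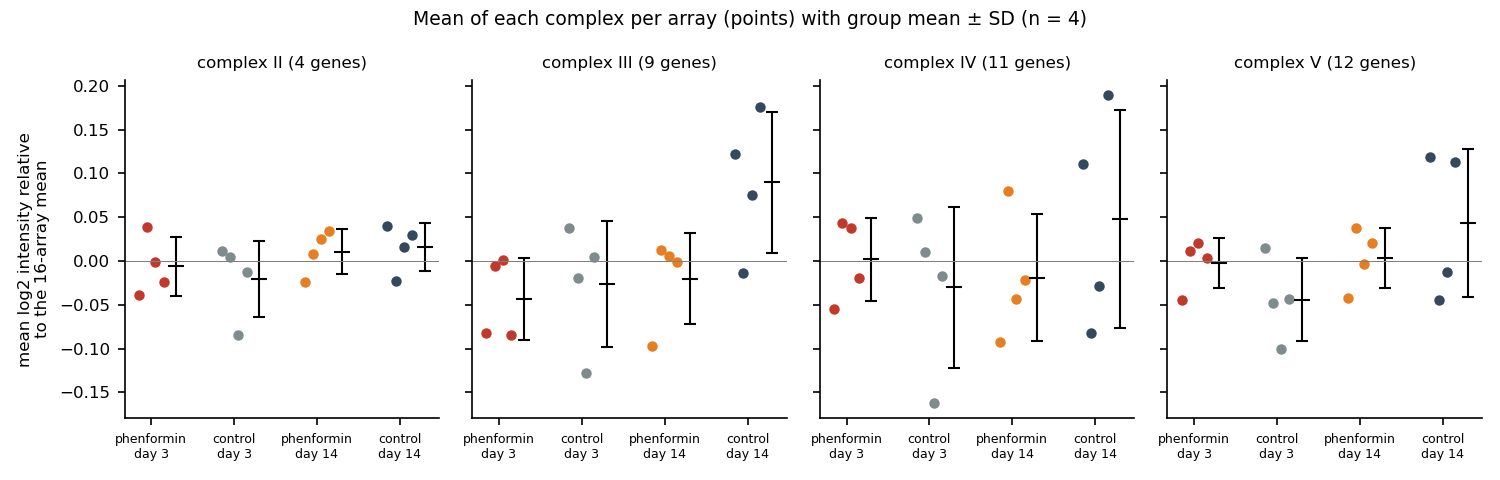
Mean of the measured genes of each complex on each array, as log2 relative to the mean over 16 arrays, with phenformin left of control at day 3 and at day 14. Points are arrays and bars the group mean ± SD; day 3 control replicate 3 was the lowest array in each complex, and the groups overlapped in each complex at both days.

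Deviations from the group means show how far single genes followed the array. The 630 pairs of genes had a median Pearson r of 0.359 across the 16 arrays, with 87.1% above 0, against 0.00589 for 2210 genes taken as every 10th gene and 0.0875 for 150 other genes with a mean above 16. Pairs within a complex had a median of 0.366 and pairs from different complexes 0.356. These are descriptions: all points come from the same arrays, each from 1 RNA sample and normalised together. Cox5b, Cox4i1 and Uqcrc1 followed the mean of the other 35 genes most closely (r of 0.916, 0.86 and 0.86), while Atp5mc1 did not (r of -0.199).

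In single arrays most of the list lay on one side of the group mean. Of the 36 genes, 32 lay above their group mean in day 14 control replicate 4 and 31 in day 3 control replicate 1. In day 14 phenformin replicate 1 only 7 did, and in day 14 control replicate 2 and day 3 control replicate 3 only 5 did. The 5 genes outside the list that followed it most closely were Mcm7 (r of 0.933), Fbl (0.92), Psmb4 (0.916), Skic8 (0.911) and LOC100361008 (0.907), over 16 arrays.

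**Figure D4:**
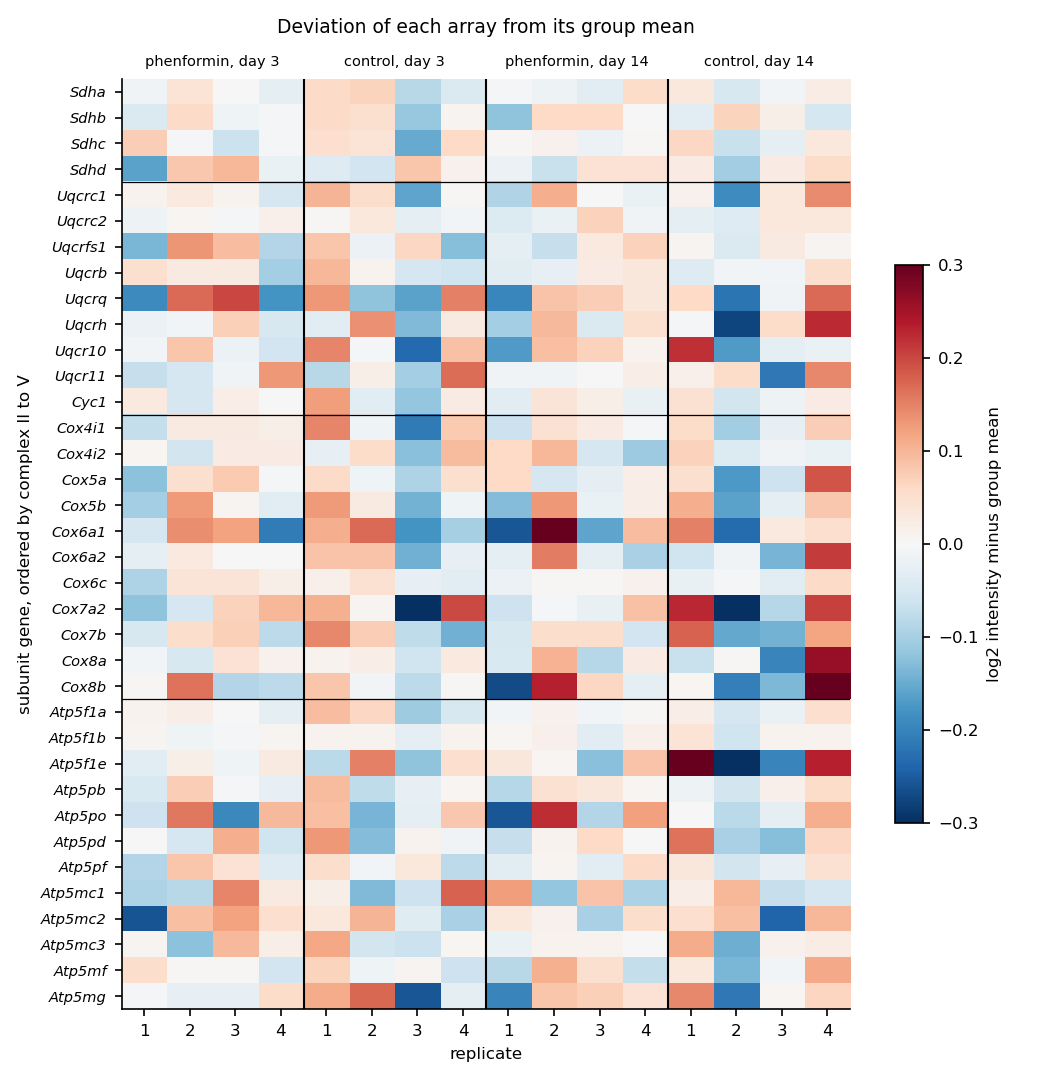
Log2 deviation of each of the 36 genes from its group mean on each of the 16 arrays, with genes grouped by complex; the colour scale ends at ±0.3 and values beyond it share the end colour. Most of a column can take one colour, as in day 3 control replicate 3, where 5 of 36 genes lay above their group mean.

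Other genes of the same pathway were taken from 4 lists: further subunits and partners of the chain, assembly factors, enzymes of coenzyme Q synthesis and regulators of respiratory genes. Of their 68 measured genes, 1 passed the test with both days averaged, where 1.21% of all genes did, so the count is near the background. It was Coa7, an assembly factor of complex IV, one of 31 assembly factors measured. It stood at 7.42, 7.29, 7.47 and 7.61 with phenformin at day 3, against 7.35, 7.24, 7.48 and 7.35 in day 3 controls. At day 14 it was 7.58, 7.75, 7.68 and 7.81 with phenformin, against 7.23, 7.32, 7.18 and 7.32 in controls, so the groups overlapped at day 3 and not at day 14. Over both days it rose 1.203-fold (log2 change 0.266, SE 0.0563, adjusted p = 0.0296).

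By day, its log2 change was 0.0915 at day 3 (adjusted p = 0.817) and 0.441 at day 14 (1.357-fold, adjusted p = 0.0522). The call was lost with medians aligned or quantiles normalised again (adjusted p = 0.0977 and 0.0629). Leaving out single arrays ended it for day 3 phenformin replicates 1, 3 and 4, day 14 phenformin replicates 2, 3 and 4, and for replicates 1 and 2 of the day 3 controls and 1 and 3 of those at day 14, with adjusted p up to 0.0628. It was also lost without both day 3 control replicates 2 and 3 (adjusted p = 0.104), chosen after seeing the data.

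With both days averaged, 0 of the 15 regulators passed, against 1.21% of all genes. At an unadjusted limma p under 0.05 there was 1 regulator, against 13% of all genes. Ppargc1b, a coactivator of mitochondrial genes, had the smallest p of that list over both days. It stood at 10.58, 10.82, 10.93 and 10.68 with phenformin at day 3, against 10.4, 10.22, 10.37 and 10.4 in day 3 controls. At day 14 it was 10.24, 10.73, 10.41 and 10.72 with phenformin, against 10.19, 10.11, 9.6 and 10.47 in controls. The groups were apart at day 3 and overlapped at day 14, with a log2 change of 0.42 over both days (1.338-fold, SE 0.106, adjusted p = 0.0673). It passed with genes under the 50th percentile of mean level dropped (adjusted p = 0.043), without day 14 phenformin replicate 1 (0.044) and without day 14 control replicate 4 (0.0292). Those were the 3 alternatives in which Ppargc1b passed, and in 25 it did not. Its limma adjusted p was 0.0874 with quantiles normalised again and 0.131 with array medians aligned. It was 0.251 without day 3 control replicates 2 and 3, chosen after seeing the data. Etfdh, which feeds electrons from fatty acid oxidation into coenzyme Q, had 0.104 over both days (adjusted p = 0.394), and Coq2, an enzyme of coenzyme Q synthesis, had 0.147 (adjusted p = 0.448).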

How the data were processed

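The authors deposited 1 linear intensity per probe set and array, computed with RMA (its version is not named), per the submitters' processing notes. The step that brought RMA output to a linear scale is not stated there, and folds refer to that scale. The log2 was taken with no further normalisation and no filter on dim genes. Of 68842 probe sets, 23446 carry 1 gene symbol in the platform annotation, which left 22093 genes. The fit used limma 3.58.1 with R 4.3.3 and version 1.17.8 of data.table, with 1 mean per group over all 16 arrays, a mean-variance trend, two-sided p-values and a Benjamini-Hochberg threshold of 0.05 for each comparison. It was tested on simulated data. Sequences were searched with Python 3.11.15 and pandas 2.3.3. The number of arrays limits the precision. Nothing in the labels says how many cages or dissection days the biological replicates span.

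The members, the other lists, the tests and the rule for named genes were chosen with earlier results of these data known. The rule named, in each complex, the 2 genes of smallest p at day 3, at day 14 and over both, the probe sets of highest and lowest mean, and the tissue isoform genes of complex IV. From each other list it named those past the test or else the 1 of smallest p. It added the 5 genes most like the list. Uqcr10, Atp5f1a and Atp5mc2 were named after their values were seen, and the members outside the rule are given by range. Alternatives were filters on dim genes, other scalings, covariates, array weights, probe set rules, fewer arrays and a replicate block.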

Additional observations from a re-analysis of the deposited data

Results flagged for a closer look

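Among groups of 4 arrays, 124 were checked for an array far from the other 3, and 6 had one, where chance gives about 1 in 20. In complex II, day 3 control replicate 3 had 13.85 for Sdhc on the log2 scale, against 14.04 to 14.06 in the other 3 arrays of its group. The same array had 19.34 for Atp5f1b, against 19.38 in the others. In complex III, day 3 phenformin replicate 4 had 14.12 for Uqcrb, against 14.25 to 14.27. For Cox4i1, day 3 phenformin replicate 1 had 13.94, against 14.03 to 14.04. Day 14 phenformin replicate 1 had 10.82 for Atp5mg, against 11.06 to 11.1, and a mean of -0.097 for complex III, against -0.001 to 0.012.

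Atp5pb had differences of opposite sign at the 2 days in the brighter of its probe sets. There every phenformin array lay above every control at day 3 and below every control at day 14. The gap at day 3 was only 0.00173. The difference of the effects in this probe set, day 14 minus day 3, was -0.27, and the interaction test in limma gave adjusted p = 0.432. The dimmer probe set had a log2 change of 0.142 at day 3 and -0.00252 at day 14, so it did not show the reversal.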

How the results depend on the processing

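In every alternative run, 0 of the 36 genes were called in each of the 5 comparisons, while the count over all genes ran from 3 to 239 at day 3 and from 1 to 76 at day 14. It ran from 33 to 576 over both days, from 0 to 1 for the difference between days and from 0 to 42 in controls. With so few calls over all genes for the difference and in controls, a count of 0 says little there. The median change of the 36 genes ran from -0.028 to 0.0209 at day 3, from -0.128 to -0.00781 at day 14, from -0.0598 to -0.00273 over both days and from 0.0376 to 0.113 in controls. With the arrays quantile normalised again, the median was -0.128 at day 14 and -0.147 for the difference between days, and Sdha had -0.188 at day 14 and -0.088 over both days. With the 99th percentile of each array as a covariate, Sdhd had 0.0186 at day 14. The median difference between days was 0.00401 with array medians aligned. The causes were not tested. Small day 3 changes also depended on 1 array: Uqcrfs1 had -0.0548 without phenformin replicate 1, Uqcrb -0.024 without phenformin replicate 4 and -0.0253 without control replicate 1, and Atp5mc1 -0.0629 without control replicate 4. At day 14 Sdha had 0.0115 without phenformin replicate 4 and 0.0119 without control replicate 2, and Sdhd ran from -0.0722 to -0.014.

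With 1 array left out, the medians ran from -0.00518 to 0.0205 at day 3, -0.0721 to -0.0178 at day 14, -0.0314 to -0.00273 over both days, -0.0887 to -0.0286 for the difference and 0.0557 to 0.107 in controls. Of the 68 genes in the other lists, 1 was called over both days, where 267 of 22093 genes were. The count was 2 without the genes under the 25th percentile of mean level and 3 without those under the 50th, 0 with quantiles normalised again or medians aligned, 2 with arrays weighted or normal scores of ranks, and 3 at adjusted p under 0.10. It ran from 0 to 3 with 1 array left out, and was 0 without day 3 control replicates 2 and 3, chosen after seeing the data; there, 3 genes of all were called at day 3 and 12 at day 14.

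The replicate numbers did not pair the arrays: deviations of same-numbered arrays correlated at -0.185 to 0.113, and 5 of 16 arrays correlated best with their own number. With the replicate block, 0 of the 36 genes were called in each comparison, and 113 of all genes were at day 3 and 5 at day 14, against 125 and 16 without it.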

Other observations

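A probe set annotated with the older symbol Atp5d, which RefSeq lists as a synonym of Atp5f1d, the delta subunit of ATP synthase, was outside the list because the annotation does not give the current symbol. Its log2 change was -0.021 at day 3 and -0.217 at day 14 (SE 0.0862).

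A second probe set of Atp5f1e, the epsilon subunit, had a log2 change of 0.251 at day 3 and 0.177 at day 14, against 0.153 and -0.0256 for the brighter one. Of the 31 assembly factors measured, the median change was -0.0521 at day 3 and 0.0203 at day 14. The 11 genes of coenzyme Q synthesis had medians of 0.0117 and 0.0532, and the 15 regulators -0.0188 and -0.0133. Red blood cell markers (6 genes) had a median of -0.467 at day 3.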
